A study of Mus musculus with 8 samples.

Results

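The helicases and remodellers that act on G-quadruplex (G4) nucleic acids were followed in mouse embryonic fibroblasts (MEFs) exposed to RHPS4, a small molecule that binds G4 structures. The rule takes them by name as Pif1, Blm, Wrn, Brip1, Rtel1, Ddx11, Dhx36, Dhx9 and Atrx, which are 9 of the 24460 genes counted. RNA-Seq was performed on wild type MEFs in medium with RHPS4 at 0 µM (3 libraries), 2 µM (3 libraries) or 10 µM (2 libraries), and the 0 µM cells served as the control. The sample labels do not state the time of exposure of each library, nor whether the replicates came from separate cultures, so the p-values below measure the spread between these libraries, which may be technical.

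A G4 forms where 4 runs of guanines in DNA or RNA fold into stacked planar tetrads. Such folds can block DNA polymerases, RNA polymerases and ribosomes, and helicases that open them let replication, transcription and translation pass. In dividing fibroblasts the DNA helicases of this group work mainly at replication forks and telomeres, and the RNA helicases work on nuclear and cytoplasmic transcripts. Pif1, Brip1, Rtel1 and Ddx11 move along DNA in the 5′ to 3′ direction, and the last 3 carry an iron-sulfur cluster. Blm and Wrn are RecQ helicases of the 3′ to 5′ direction, Dhx36 and Dhx9 are DEAH-box RNA helicases, and Atrx is a SNF2-type chromatin remodeller that binds G4 DNA and moves along duplexes.

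The promoters of the helicases themselves were searched for G4-forming letters, since RHPS4 binds such folds. RefSeq promoter sequences (GRCm38.p6) were matched for 6 members, Blm, Brip1, Rtel1, Dhx36, Dhx9 and Atrx. The motif was 4 runs of at least 3 G with gaps of 1 to 7 bases, on either strand, in the 250 bases before the annotated start. It was found in Rtel1 and Brip1, that is in 2 of the 6, against 5483 of all 32851 promoters (16.7%) and 28.0% of the tested genes with a promoter sequence. Both stretches are printed because no other searched member had the motif. The level of Brip1 correlated with that of Rtel1 (r = 0.859 over the 8 libraries), and whether the motif bears on either level was not tested. Pif1 (r = 0.937) and Ddx11 (r = 0.891) correlated more closely with Rtel1, but no promoter sequence was matched for them, so their promoters were not searched. The capitals mark the motif, which lies 117 to 93 bases upstream in Rtel1, where it is read on the opposite strand as runs of C, and 181 to 160 bases upstream in Brip1, where it is read on the gene's own strand.
Rtel1, chr2:181319567-181319671, plus strand: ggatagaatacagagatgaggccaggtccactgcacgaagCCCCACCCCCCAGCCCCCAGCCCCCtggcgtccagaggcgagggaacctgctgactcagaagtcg
Brip1, chr11:86201313-86201414, minus strand: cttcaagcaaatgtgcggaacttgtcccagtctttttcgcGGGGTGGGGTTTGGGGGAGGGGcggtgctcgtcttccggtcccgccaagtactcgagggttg
The Rtel1 motif has 25 bases and the Brip1 motif 22. The Brip1 stretch also runs into the first exon of Brip1os, a non-coding gene on the other strand, and the Rtel1 stretch overlaps no annotated exon. The letters do not show whether a G4 folds there in cells. Among tested genes, the 2997 with the motif had a median log2 fold change of -0.03 at 10 against 0 µM and the 7691 without it 0.03. At 2 against 0 µM the medians were -0.0409 with the motif and 0.000175 without it, and at 10 against 2 µM both were 0.02.

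All 9 mRNAs were well above the counting floor. Library totals lay between 10455965 and 26688121 counts, and the lowest count of any member in any library was 252, for Blm. The levels below are CPM, counts scaled to the size of the library, here with edgeR's TMM factors, and levels of different genes are compared as RPKM, which is CPM divided by exon length in kilobases. Chi-square values per degree of freedom between replicates ran from 3.23 to 20.2, above sampling noise, and both highest values involved 0 µM replicate 1. That library also had the lowest total count. The share of counts from the mitochondrial genome fell into separate ranges of 13.2 to 14.4% (0 µM), 7.40 to 8.26% (2 µM) and 5.33 to 6.32% (10 µM). Fewer cells that express a gene and less RNA per cell cannot be told apart in such bulk libraries.

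Without RHPS4 the RNA helicase Dhx9 had the highest level, 33.2 ± 8.05 RPKM (SD, n = 3). Rtel1 followed with 22.5 ± 0.598, then Dhx36 with 18.6 ± 0.603 and Atrx with 15.1 ± 0.756 RPKM (SD, n = 3 each). These ranges did not overlap, although Dhx9 in 0 µM replicate 1 (23.9 RPKM) came close to the highest Rtel1 value of 23.1 RPKM. Ddx11, Pif1 and Wrn had neighbouring levels of 7.88 ± 0.235, 7.55 ± 0.427 and 7.47 ± 0.143 RPKM (SD, n = 3 each). The range of Pif1 overlapped with both others, while the lowest Ddx11 value (7.64 RPKM) lay just above the highest Wrn value (7.61 RPKM). Brip1 with 5.93 ± 0.374 and Blm with 3.20 ± 0.155 RPKM (SD, n = 3 each) were the lowest, and their ranges were separate from each other and from those above. With the length of the longest transcript in place of the union of all exons, Dhx36 (33.8 RPKM) and Rtel1 (33.4 RPKM) changed places, and so did Wrn (9.07 RPKM) and Pif1 (8.51 RPKM).

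**Figure D1:**
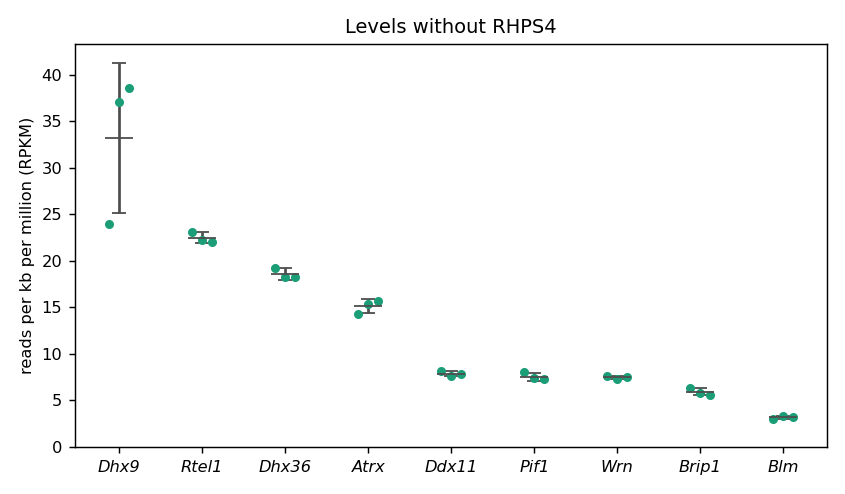
Level of each helicase mRNA at 0 µM RHPS4 in RPKM over the union of its exons. Points are the 3 libraries and bars the mean with SD. Dhx9 stands highest with the widest spread, and Blm stands lowest at 3.20 RPKM.

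The 5′ to 3′ DNA helicases had their highest mean at 2 µM and their lowest at 10 µM after TMM scaling, whereas with total counts only their 10 µM means were not below those at 0 µM. Between those doses Rtel1 was 1.32-fold, Ddx11 1.28-fold and Pif1 1.25-fold lower at 10 µM with adjusted p under 0.05, while Brip1 was 1.14-fold lower and did not pass. In none of them did the fold change reach the 1.5-fold that the study asked of a differentially expressed gene (DEG).

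Rtel1 (chr2:181319739-181356616, plus strand, mm10) unwinds telomere loops and G4 folds at telomeres and forks. Its level was 153.1, 147.1 and 145.6 CPM at 0 µM, 170.1, 170.8 and 165.1 CPM at 2 µM, and 126.8 and 129.6 CPM at 10 µM. The 3 doses did not overlap after TMM scaling, with 2 µM above and 10 µM below the untreated libraries. The share of all tested genes with this order of the doses was not computed. With total counts only, the 10 µM libraries (137.8 and 142.4 CPM) overlapped those at 0 µM (137.4 to 141.1 CPM). The log2 fold change was 0.18 ± 0.0617 (SE) at 2 against 0 µM (adjusted p = 0.122), -0.21 ± 0.0694 at 10 against 0 µM (adjusted p = 0.0643, and 0.00417 in place of -0.21 with total counts only) and -0.40 ± 0.0698 at 10 against 2 µM (adjusted p = 0.00254, edgeR's quasi-likelihood test). In this fit Rtel1 passed an adjusted p of 0.05 between the doses of the drug and not against 0 µM. It fell between those doses in all 9 alternative fits and in all 8 fits that left out 1 library, with adjusted p between 7.15e-05 and 0.0171. Without 0 µM replicate 1 the other comparisons passed at 0.05 as well (adjusted p = 0.0408 at 2 µM and 0.0424 at 10 µM against 0 µM). The difference at 10 against 0 µM also passed with RLE (adjusted p = 0.0476), a minimum of 10 counts (0.045) and GC correction (0.0492), and that at 2 against 0 µM with total counts only (0.0254).

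Ddx11 (chr17:66123520-66152174, plus strand), a helicase needed for sister chromatid cohesion, moved the same way. It had 53.8, 50.6 and 52.2 CPM at 0 µM, 57.0, 61.6 and 61.1 CPM at 2 µM, and 50.0 and 43.7 CPM at 10 µM. Here too the 3 doses did not overlap after TMM scaling, though 1 library at 10 µM lay just under the lowest untreated one. With total counts only, the 10 µM libraries (54.4 and 48.1 CPM) lay on both sides of those at 0 µM (48.5 to 49.5 CPM). Its log2 fold changes were 0.20 ± 0.0755 (adjusted p = 0.156, and 0.0374 with total counts only), -0.15 ± 0.0850 (adjusted p = 0.258) and -0.35 ± 0.0854 (adjusted p = 0.0128) in the same order of comparisons. The difference between 10 and 2 µM did not pass without 2 µM replicate 2 (adjusted p = 0.0517), without 10 µM replicate 2 (adjusted p = 0.0868) or with total counts only (adjusted p = 0.0723).

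Pif1 (chr9:65587160-65595967, plus strand) works in the nucleus and in mitochondria, where RHPS4 effects were a question of the study. Its level was 35.3, 32.4 and 31.8 CPM at 0 µM, 34.6, 38.0 and 35.0 CPM at 2 µM, and 29.2 and 28.3 CPM at 10 µM. The 0 and 2 µM libraries overlapped, and both 10 µM libraries lay below all others. Its log2 fold change was 0.12 ± 0.0793 (adjusted p = 0.417) at 2 µM and -0.20 ± 0.0894 (adjusted p = 0.161) at 10 µM against 0 µM, and -0.32 ± 0.0900 (adjusted p = 0.0255) at 10 against 2 µM. The last value did not pass without 2 µM replicate 2 (adjusted p = 0.0945), without 10 µM replicate 2 (adjusted p = 0.0890) or with total counts only (adjusted p = 0.147).

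Brip1 (chr11:86058138-86201193, minus strand), the Fanconi anaemia helicase that binds Brca1, had the smallest differences of these DNA helicases. Its libraries gave 47.3, 43.4 and 42.0 CPM at 0 µM, 45.7, 46.4 and 46.2 CPM at 2 µM, and 41.6 and 39.4 CPM at 10 µM. Both 10 µM libraries were again the lowest. The log2 fold change of -0.19 ± 0.0834 at 10 against 2 µM had an adjusted p of 0.126, with a 95% interval from -0.37 to -0.01. It passed without 0 µM replicate 1 (adjusted p = 0.0441) and with GC correction (log2 fold change -0.29, adjusted p = 0.0305). Of its 75-base stretches 0.42% also occur in other genes, so that a small part of its reads could be ambiguous, whereas no such stretch was shared for the other 8 members.

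**Figure D2:**
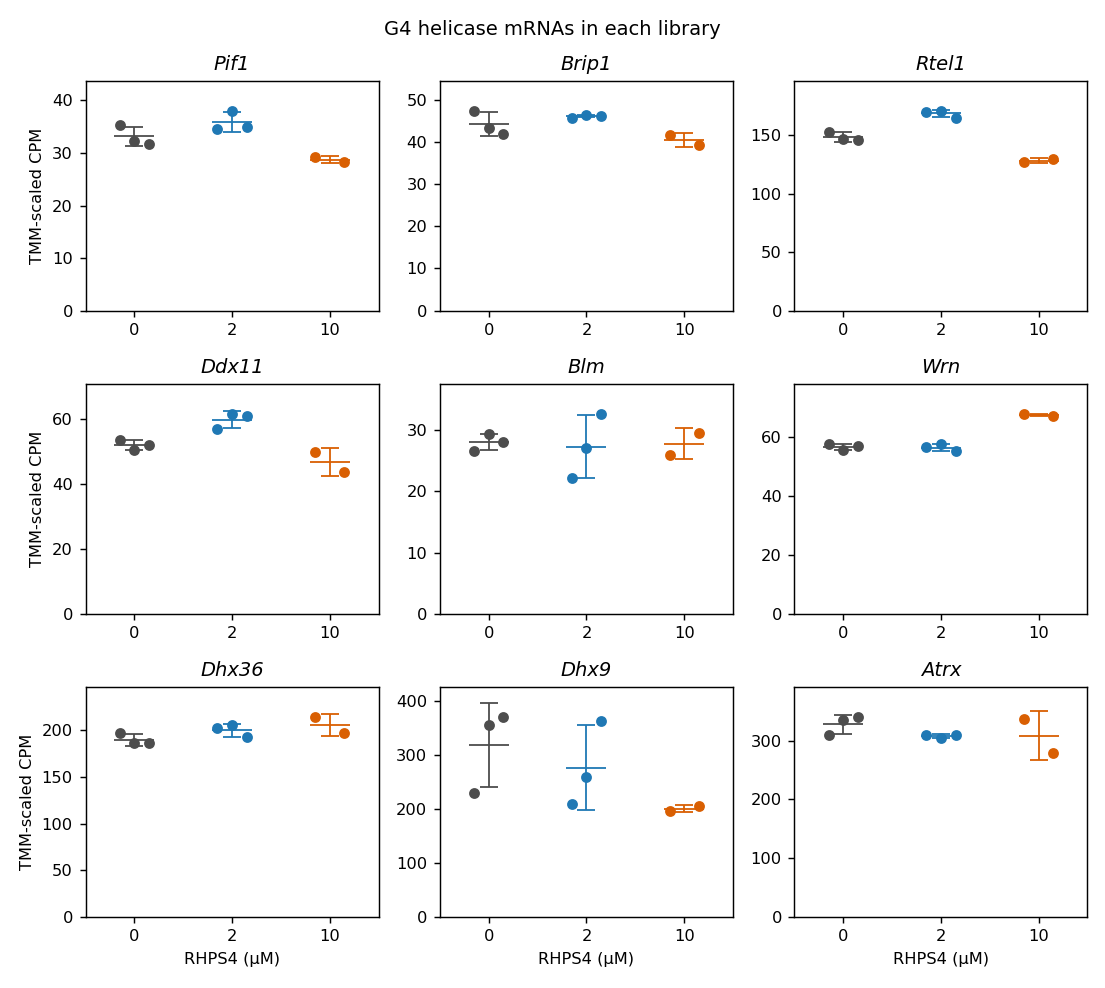
Level of each helicase mRNA by RHPS4 dose, as TMM-scaled CPM on axes that start at 0. Points are libraries and bars the mean with SD (n = 3, 3 and 2). Rtel1 steps up to 165.1 to 170.8 CPM at 2 µM and down to 126.8 and 129.6 CPM at 10 µM, while Wrn stands at 67.3 and 67.9 CPM at 10 µM only.

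Of the RecQ helicases, Wrn rose at 10 µM and Blm showed no detectable difference. Wrn (chr8:33234384-33385527, minus strand), which joins a helicase to an exonuclease, had 57.8, 55.7 and 56.9 CPM at 0 µM, 56.6, 57.6 and 55.3 CPM at 2 µM, and 67.9 and 67.3 CPM at 10 µM. The untreated and 2 µM libraries overlapped fully, and both 10 µM libraries lay above all 6 of them. Wrn was 1.19-fold higher at 10 than at 0 µM (log2 fold change 0.25 ± 0.0705, adjusted p = 0.0357) and 1.20-fold higher than at 2 µM (0.26 ± 0.0709, adjusted p = 0.0225). Its replicates were very close, since 99.6% of the tested genes had a larger SD within doses. The rise over 0 µM passed in 1 of the 8 fits without 1 library, that without 0 µM replicate 1, and the adjusted p of these fits ran from 0.0383 to 0.208. It passed in 4 of the 9 alternatives. It failed with DESeq2 (adjusted p = 0.172), GC correction (log2 fold change 0.17, adjusted p = 0.148), no filter on low counts (0.157), only the groups compared (0.0913) and the replicate block (0.0769). The rise over 2 µM failed in the first 3 of these (adjusted p = 0.122, 0.151 and 0.118).

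Blm (chr7:80454733-80535119, minus strand) dissolves double Holliday junctions together with Top3a, Rmi1 and Rmi2. It had 26.7, 29.4 and 28.1 CPM at 0 µM, 22.2, 27.1 and 32.6 CPM at 2 µM, and 26.0 and 29.6 CPM at 10 µM. All 3 doses overlapped, and the 2 µM libraries alone spanned the whole range. Between 10 and 0 µM it differed by a log2 fold change of -0.02 with a 95% interval from -0.32 to 0.28, so that changes of that size in either direction lie within the error. The sign of each Blm difference turned in at least 1 alternative.

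The ratio of Rtel1 to Wrn within a library does not depend on the scaling of libraries. This pair was picked after its values were seen, as the clearest fall and the clearest rise at 10 µM, so its ratio is a description. The same holds for the other ratios over Wrn, and a lower ratio does not show which of its genes moved. With total counts only, the log2 fold change at 10 against 0 µM was 0.469 for Wrn. There it was 0.00417 for Rtel1, 0.0634 for Ddx11, 0.0153 for Pif1 and 0.0938 for Brip1. On the log2 scale of counts it was 1.36 to 1.40 in the untreated libraries, 1.57 to 1.59 at 2 µM, and 0.90 and 0.94 in those of the highest dose. The 3 doses did not overlap. The ratio of Ddx11 to Wrn gave the same order, with -0.14 to -0.10 at 0 µM, 0.01 to 0.14 at 2 µM, and -0.62 and -0.44 at 10 µM. For Pif1 over Wrn the 0 µM (-0.839 to -0.711) and 2 µM (-0.707 to -0.601) libraries nearly touched, with -1.25 and -1.22 at 10 µM. For Brip1 over Wrn the 0 µM (-0.44 to -0.29) and 2 µM (-0.31 to -0.26) libraries overlapped, and 10 µM (-0.77 and -0.71) lay below. For Rtel1 over Pif1 the doses overlapped throughout, with 2.12 to 2.19, 2.17 to 2.29, and 2.12 and 2.19. Across the 8 libraries the log2 levels of Pif1, Brip1, Rtel1 and Ddx11 correlated with r of 0.859 to 0.937 for each pair, and with Wrn with r of -0.826 to -0.702. These correlations describe libraries that share doses, and they carry no test.

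The RNA helicases differed in how closely their replicates lay. Dhx36 (chr3:62468013-62507004, minus strand), the main resolvase of RNA G4 structures, had 196.9, 186.1 and 186.4 CPM at 0 µM, 202.1, 205.2 and 192.4 CPM at 2 µM, and 214.1 and 197.0 CPM at 10 µM. The 10 µM libraries were above the untreated ones, the lower of them by a margin far below the spread at 0 µM. At 0.12 ± 0.0744, its log2 fold change at 10 against 0 µM had an adjusted p of 0.329, with a 95% interval from -0.05 to 0.28. It passed with total counts only (log2 fold change 0.33, adjusted p = 0.00639), a scaling that raised the median of all genes as well.

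Dhx9 (chr1:153455758-153487660, minus strand), which opens R-loops, double-stranded RNA and G4 structures, had the widest spread of the members. It had 229.8, 356.0 and 370.1 CPM at 0 µM, 208.5, 259.2 and 362.7 CPM at 2 µM, and 195.6 and 205.4 CPM at 10 µM. Both 10 µM libraries were the lowest of all, but 0 µM replicate 1 and 2 µM replicate 1 lay closer to them than to the other libraries of their own dose. The log2 fold change was -0.67 ± 0.225 at 10 against 0 µM (1.59-fold lower, adjusted p = 0.0713) and -0.47 ± 0.224 at 10 against 2 µM (adjusted p = 0.157). Its fold change at 10 against 0 µM was the only one of a member over 1.5-fold, and without 0 µM replicate 1 it was -0.88 with an adjusted p of 0.00726. Over the 9 alternatives its adjusted p ran from 0.0247 to 0.154. In both groups with 3 libraries the level of Dhx9 rose in the order of the total counts, which no other member did and which 9.63% of all tested genes did. The SD of Dhx9 within doses was 0.351 on the log2 scale, and 15.7% of the tested genes had a larger one. The part of the total count in the Dhx9 difference was not tested.

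**Figure D3:**
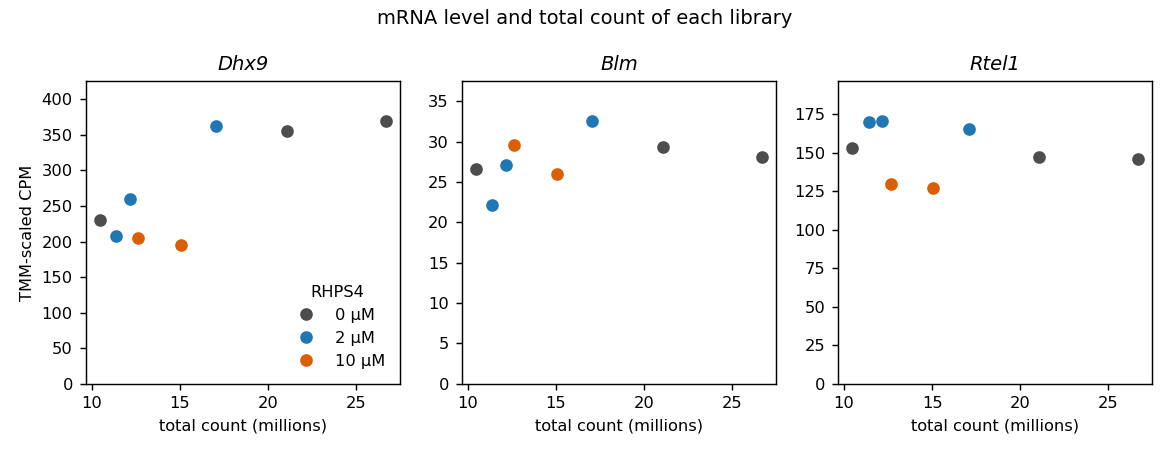
TMM-scaled CPM of Dhx9, Blm and Rtel1 against the total count of each library, with the colour for the dose. Dhx9 spans 208.5 to 370.1 CPM over the 0 and 2 µM libraries, and within each of these doses it is higher in those with more counts. At 10 µM the library with more counts has the lower Dhx9 level (195.6 against 205.4 CPM). Rtel1 separates by dose at any total after TMM scaling, while with total counts only its 0 and 10 µM libraries overlap.

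Atrx (chrX:105797615-105929403, minus strand) places histone H3.3 at telomeres and other G-rich repeats together with Daxx. It had 309.6, 335.2 and 340.4 CPM at 0 µM, 310.7, 304.6 and 309.6 CPM at 2 µM, and 337.9 and 278.8 CPM at 10 µM. The doses overlapped, and the 10 µM libraries lay farthest apart. Its log2 fold changes were -0.09 ± 0.0805 at 2 against 0 µM (adjusted p = 0.550), -0.09 ± 0.0901 at 10 against 0 µM (adjusted p = 0.539) and 0.00 at 10 against 2 µM, with a 95% interval of the last from -0.20 to 0.20.

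No member was a DEG in any comparison (the study asked for both an adjusted p below 0.01 and more than 1.5-fold), and DESeq2 gave 0 as well. Of all 14296 tested genes 0.497% were DEGs at 2 against 0 µM, 3.09% at 10 against 0 µM and 5.51% at 10 against 2 µM. At 2 against 0 µM none of the 9 had an adjusted p under 0.05, where 1.51% of the tested genes passed as higher and 2.65% as lower, and 2 of the 9 had an unadjusted p under 0.05, beside 21.3% of the tested genes (DESeq2 also gave 0 at an adjusted p under 0.05). At 10 against 0 µM 1 member was higher (Wrn) and 0 lower, beside 6.81% and 7.11% of the tested genes, and 4 of the 9 had an unadjusted p under 0.05, beside 29.4%. At 10 against 2 µM 1 was higher (Wrn) and 3 lower (Rtel1, Ddx11 and Pif1), beside 11.5% and 11.9%, and 5 of the 9 had an unadjusted p under 0.05, beside 36.5%.

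Counted by libraries that did not overlap, 2 members (Rtel1 and Ddx11) were higher at 2 than at 0 µM and 0 were lower, where 12.7% and 12.9% of the tested genes did so. At 10 against 0 µM 2 were higher (Wrn and Dhx36; 22.9% of tested genes) and 5 lower (Pif1, Brip1, Rtel1, Ddx11 and Dhx9; 20.0%). At 10 against 2 µM 1 was higher (Wrn; 27.0%) and the same 5 members were lower (24.9%). The median log2 fold change of the 9 was 0.07, -0.12 and -0.19 in the 3 comparisons, and that of all tested genes -0.01, 0.02 and 0.03. When only total counts were used for scaling, the median of all tested genes at 10 against 0 µM moved to 0.23 and that at 10 against 2 µM to 0.16. The differences of Pif1, Brip1, Rtel1 and Ddx11 at 10 against 0 µM then moved from below 0 to between 0.00417 and 0.0938, still below that median.

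**Figure D4:**
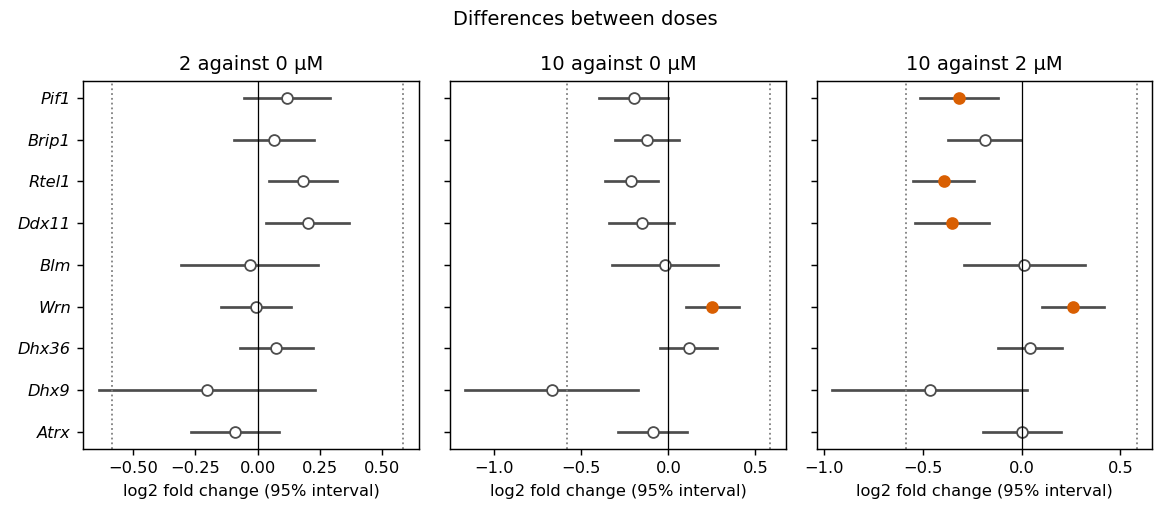
Log2 fold change of each helicase in the 3 comparisons with its 95% interval from edgeR. Filled points have an adjusted p under 0.05 (Wrn at 10 against 0 µM, and Pif1, Rtel1, Ddx11 and Wrn at 10 against 2 µM), and dotted lines mark 1.5-fold. The interval of Dhx9 is the widest in each comparison.

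Markers of S phase and proliferation moved in the same direction as the 5′ to 3′ DNA helicases, and not as Wrn or Blm. The summed level of 25 such mRNAs was 6163 to 6738 CPM at 0 µM, 6809 to 7080 CPM at 2 µM, and 5195 and 5304 CPM at 10 µM, so that it also stood highest at 2 µM and lowest at 10 µM. With total counts only it was 5830 to 6218, 6821 to 7063, and 5662 and 5846 CPM, and the 0 and 10 µM libraries overlapped. At 10 against 2 µM 22 of the 25 were lower with an adjusted p under 0.05 and 0 higher, beside 11.9% and 11.5% of the tested genes. At 10 against 0 µM 13 were lower and 0 higher, beside 7.11% and 6.81%. At 2 against 0 µM only 2 of the 25 passed, both as higher, beside 1.51% of the tested genes. Cyclin E2 (Ccne2) rose 1.41-fold at 2 against 0 µM (adjusted p = 0.0246) and was 2.06-fold lower at 10 than at 2 µM (adjusted p = 0.000165), and the origin licensing factor Cdc6 was 1.82-fold lower (adjusted p = 8.3e-05). The differences of Rtel1, Ddx11 and Pif1 were smaller than those of these 2 genes. The median log2 fold change of the 25 markers was 0.18 at 2 against 0 µM and -0.47 at 10 against 2 µM. Rtel1 had 0.18 and -0.40, Ddx11 0.20 and -0.35, and Pif1 0.12 and -0.32 in these comparisons. The part of proliferation in the differences of the helicases was not tested.

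**Figure D5:**
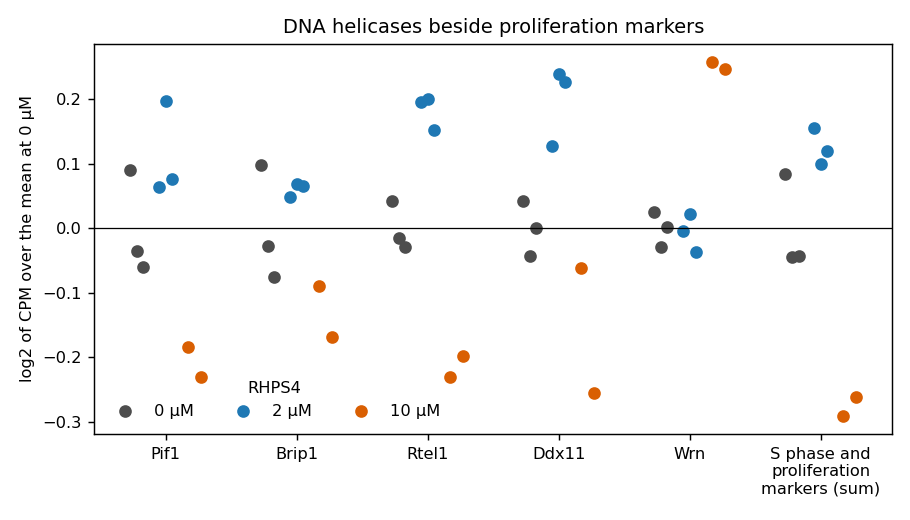
Log2 of the CPM of each library over the mean at 0 µM, for the 5′ to 3′ DNA helicases, Wrn and the sum of 25 S phase and proliferation markers. Points are libraries. After TMM scaling the marker sum and the 4 DNA helicases lie lowest at 10 µM, which with total counts only holds against 2 µM but not against 0 µM, where the marker sums overlap, and Wrn lies highest there at 67.3 and 67.9 CPM.

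Some helicases outside the group were DEGs. At 10 against 2 µM 11.5% of the tested genes were higher and 11.9% lower with an adjusted p under 0.05, and 5.51% were DEGs. Of 35 related helicases, all tested, 4 were higher and 10 lower by that threshold, and 4 of the latter were DEGs. These were Ddx21 (1.74-fold lower), an RNA helicase of ribosome synthesis, Dna2 (1.67-fold), a nuclease and helicase of nuclear and mitochondrial DNA, Ddx3x (1.54-fold), which acts in translation, and the splicing helicase Dhx15 (1.51-fold). Against 0 µM 1 was higher and 6 lower at 10 µM, beside 6.81% and 7.11% of the tested genes. The higher one was Ythdc2 (1.21-fold, adjusted p = 0.0287), an RNA helicase that binds methylated RNA. At 2 µM 2 were higher than at 0 µM (1.51% of the tested genes), the translation helicase Dhx29 (1.25-fold, adjusted p = 0.0270) and the DNA polymerase theta gene Polq (1.23-fold, adjusted p = 0.0495).

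Partners of the helicases were lower or did not pass. Of 29, 0 were higher and 8 lower at 10 against 2 µM, beside 11.5% and 11.9% of the tested genes. At 10 against 0 µM 3 were lower, beside 7.11% of the tested genes, and none passed at 2 against 0 µM in either direction. The flap endonuclease Fen1 was the only DEG among the 29 (1.68-fold lower at 10 than at 2 µM, adjusted p = 0.000461). Top3a, the topoisomerase of the Blm complex, was 1.24-fold lower at 10 than at 0 µM (adjusted p = 0.0388), beside a Blm mRNA with no detectable difference. The replication clamp Pcna was 1.45-fold lower at 10 than at 2 µM (adjusted p = 0.00644), and the fork protein Wdhd1 1.47-fold lower (adjusted p = 0.000461).

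Of 24 proteins that bind G4 structures, 1 was higher and 9 lower at 10 against 2 µM (11.5% and 11.9% of the tested genes). At 10 against 0 µM 2 were higher and 5 lower (6.81% and 7.11%), and at 2 against 0 µM 1 was higher and 0 lower (1.51% and 2.65%). The RNA editing enzyme Adar was the higher one at 10 against 2 µM (1.45-fold, adjusted p = 0.00115). The splicing factors Srsf1 and Hnrnph1 were DEGs there, with log2 fold changes of -0.60 and -0.59 (adjusted p = 0.00101 and 0.00896). At 2 µM the nucleic acid chaperone Cnbp was 1.30-fold higher than at 0 µM (adjusted p = 0.0493).

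The cells carried the markers of fibroblasts at every dose, though Thy1 was low. It had 58 to 168 counts per library, near the 35 to 172 of Cd68 among the markers of other cell types. The 10 fibroblast markers summed to 14088 to 14535 CPM at 0 µM, 12845 to 13059 CPM at 2 µM, and 12489 and 12807 CPM at 10 µM. With total counts only the sum was 13334 to 13743 CPM at 0 µM and 13765 and 13957 CPM at 10 µM, so that the order of these doses turned. At 2 against 0 µM 3 of the 10 were lower with an adjusted p under 0.05 (2.65% of the tested genes). At 10 against 0 µM 2 were lower (7.11%), and at 10 against 2 µM 1 was higher (11.5%) and 1 lower (11.9%). The 13 markers of epithelial, endothelial, blood, neural and muscle cells summed to 14.5 to 17.3 CPM at 0 µM, 15.9 to 17.1 CPM at 2 µM, and 21.2 and 25.5 CPM at 10 µM. Only 8 of the 13 were tested, and the neuronal tubulin Tubb3 alone passed, 2.68-fold higher at 10 than at 0 µM (adjusted p = 0.000351). The muscle factor Myog was at 0 counts in 1 library and at most 7 in any.

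For each member the gene outside the 9 with the most similar log2 level over the 8 libraries was looked up among 14287 genes. For Wrn it was the ER stress gene Herpud1 (r = 0.995), for Rtel1 Cops8 (r = 0.993), for Dhx9 Stt3b (r = 0.987) and for Brip1 Esyt2 (r = 0.983). For Pif1 it was Aimp2 (r = 0.980), for Dhx36 Psmg4 (r = 0.978), for Atrx Prex1 (r = 0.978), for Ddx11 Cbll1 (r = 0.972) and for Blm Zfp81 (r = 0.968). These are the highest values out of many over 8 libraries that share doses, and they are given as a description.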

How the data were processed

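RNA-Seq was performed on MEFs at 0, 2 and 10 µM RHPS4. Per the labels, the authors depleted ribosomal RNA, made stranded libraries, aligned reads to mm10 with STAR 2.5.2a and counted them with featureCounts. The deposited values are raw counts per gene for each library. The annotation and strand setting of the counting are not given in the sources used here.

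Groups follow the labelled dose. Testing was done with edgeR 4.0.16 in R 4.3.3 (TMM, filterByExpr, quasi-likelihood test, Benjamini-Hochberg adjustment over all 14296 tested genes), with all 8 libraries in one model and dose as its only factor. The SE is the size of the log2 fold change over the square root of F. RPKM used exon lengths from the GENCODE annotation of GRCm38 (mm10), which matched 23376 of 24460 genes (95.57%), and coordinates are from it. Correlations used log2 CPM with a prior count of 2, and 0.5 was added to every count before ratios were taken. The floor of 3 counts was 0.112 to 0.287 CPM, and it covers counting error only.

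The members and lists were chosen with earlier results of these data known. From each list every gene past a threshold could be named, or the 5 of smallest p per direction and comparison. The settings tried in turn were DESeq2 1.42.0, RLE, TMM over nuclear genes, total counts, no filter, a minimum of 10 counts per library, only the groups compared, a replicate block, no minimum fold change, longest transcript lengths, and each library left out. A correction for GC content (loess, span 0.5) was chosen after seeing the data. The scripts were checked on simulated data. Plots were drawn with matplotlib 3.10.9.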

Additional observations from a re-analysis of the deposited data

Results flagged for a closer look

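Rtel1 and Ddx11 were marked because every 2 µM library lay above, and every 10 µM library below, all the untreated libraries after TMM scaling. The share of all tested genes with this order of the doses was not computed. Taken singly, 12.7% were higher at 2 than at 0 µM and 20.0% lower at 10 than at 0 µM without overlap. With total counts only, the 0 and 10 µM libraries of both genes overlapped. The log2 fold change at 10 against 2 µM was -0.396 for Rtel1 and -0.354 for Ddx11, and edgeR gave them adjusted p = 0.00254 and 0.0128. Both genes were marked by the order of these same libraries, so these p-values describe the difference and are no independent test of it. In the same fit neither gene passed an adjusted p of 0.05 in either dose against 0 µM. In other settings Rtel1 passed at 10 against 0 µM with RLE (0.0476), at least 10 counts (0.045), GC correction (0.0492) and without 0 µM replicate 1 (0.0424). At 2 against 0 µM Rtel1 (0.0254) and Ddx11 (0.0374) passed with total counts only, and Rtel1 without 0 µM replicate 1 (0.0408).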

How the results depend on the processing

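The difference of Rtel1 at 10 against 2 µM kept its direction and an adjusted p under 0.05 in all 9 alternatives (-0.474 to -0.261) and when any 1 library was left out (-0.450 to -0.390). Where 1 library of a dose was left, it was assumed to vary like the others. With total counts only, the log2 fold changes at 10 against 0 µM turned to 0.015 for Pif1, 0.196 for Blm, 0.0938 for Brip1, 0.00417 for Rtel1, 0.0634 for Ddx11 and 0.124 for Atrx, and at 2 against 0 µM to 0.0462 for Blm and 0.0749 for Wrn. Wrn at 2 against 0 µM was also above 0 with TMM over nuclear genes (0.00398), GC correction (0.0152) and only the groups compared (0.00229). At 10 against 2 µM Blm turned with RLE (-0.000377), no filter (-0.0306), GC correction (-0.0781) and DESeq2 (-0.0235). Atrx turned there with RLE (-0.0144), TMM over nuclear genes (-0.0108), no filter (-0.0433), GC correction (-0.109), DESeq2 (-0.0391) and only the groups compared (-0.00224), and Dhx36 with no filter (-0.00248) and GC correction (-0.0678).

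The number of members with an adjusted p under 0.05 at 10 against 0 µM was 2 with RLE, total counts, at least 10 counts and GC correction, and 0 with DESeq2 and with only the groups compared. With total counts it was 2 at 2 against 0 µM and 2 at 10 against 2 µM. The median of the members with total counts was 0.147, 0.0938 and -0.0533 in the 3 comparisons. With GC correction it was -0.192 at 10 against 0 µM and -0.291 at 10 against 2 µM, and with no filter -0.232 at the latter. Without a minimum fold change 1 member, Rtel1, passed an adjusted p of 0.01 at 10 against 2 µM. The median level at 0 µM was 11.7 RPKM with the longest transcript and 7.41 RPKM with total counts. The causes were not tested.

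Leaving out 1 library gave 0 to 1 members with an adjusted p under 0.05 at 2 against 0 µM, 0 to 3 at 10 against 0 µM and 1 to 6 at 10 against 2 µM, with medians of 0.0281 to 0.109, -0.228 to -0.112 and -0.269 to -0.185. At the study's thresholds it gave 0 to 1 members at 10 against 0 µM, the 1 being Dhx9 without 0 µM replicate 1. Differences that changed sign without 1 library ran from -0.182 to 0.0936 (Blm) and -0.0197 to 0.0143 (Wrn) at 2 against 0 µM, from -0.141 to 0.0414 (Blm) and -0.268 to 0.0125 (Atrx) at 10 against 0 µM, and from -0.119 to 0.145 (Blm), -0.0605 to 0.0611 (Dhx36) and -0.186 to 0.0936 (Atrx) at 10 against 2 µM. Wrn at 10 against 2 µM did not pass when any 1 of the 2 or 10 µM libraries was left out (adjusted p = 0.063 to 0.148).

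Same-numbered libraries at 0 and 2 µM deviated together with r of 0.199, 0.0845 and 0.161. Differently numbered libraries of these doses had r of -0.154 to 0.0584. At 10 µM same-numbered libraries had r below 0, but the 2 libraries there deviate by equal and opposite amounts, so these values cannot decide. Whether the replicate numbers pair the libraries was not settled, and the main fit used no pairing. With the replicate block DEGs numbered 54, 322 and 735 against 71, 442 and 788 without it. Under the replicate block Wrn at 10 against 0 µM had an adjusted p of 0.0769, Dhx9 had a log2 fold change of -0.47 with an adjusted p of 0.0446, and Blm turned to 0.0598. Rtel1, Ddx11, Pif1 and Wrn still passed at 10 against 2 µM.

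The 10 µM group has 2 libraries, so its differences rest on few samples, and the shared estimate of spread comes largely from the other doses.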
